A study of Mus musculus with 7 samples.

Results

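Cxcl12, Cxcr4, Ackr3, Hgf and Met are 5 genes of 2 ligand and receptor systems known to guide migrating cells. They were taken by symbol, with no threshold on a measured value but with earlier results of these data known, from the 30355 genes that all libraries of the series list. Each is described here across the cell types of the embryonic mouse nose, with the ligands first and the receptors after them. In GRCm38, the build that mm10 stands for, Cxcl12 lies on chromosome 6 from 117168535 to 117181367 on the plus strand and Met on the same chromosome from 17463800 to 17573980, also on the plus strand. Cxcr4 lies on chromosome 1 from 128588199 to 128592293 on the minus strand, Ackr3 on chromosome 1 from 90203980 to 90216751 on the plus strand, and Hgf on chromosome 5 from 16553495 to 16620152 on the plus strand. The measured values are whole-gene counts from the 3′ ends of transcripts, so no exon or isoform is told apart.

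CXCL12 is a secreted chemokine that attracts cells carrying CXCR4, a receptor coupled to inhibitory G proteins. ACKR3, also called CXCR7, binds CXCL12 without that G protein signalling and removes it from the surroundings, and thereby shapes the ligand's gradients. Hepatocyte growth factor, encoded by Hgf, is secreted as an inactive precursor that proteases cleave, and it acts on the receptor tyrosine kinase MET, classically from mesenchyme to epithelium. Both systems are known in the developing nose for their part in the migration of GnRH neurons, the cells that later control reproduction, from the olfactory placode along nasal axons to the forebrain. Those axons include the terminal nerve.

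The study profiled single cells of whole noses at embryonic day 14.5 with droplet 3′ RNA sequencing. There were 5 wild-type (WT) libraries of CD1 IGS mice and 2 libraries of 1 nose of ProKR2iCre/R26tdTomato mice. These carry the allele B6;SJL-Prokr2em1(cre)Cfe together with the reporter Gt(ROSA)26Sortm14(CAG-tdTomato)Hze, so that cells that have expressed Cre from the Prokr2 locus carry a red fluorescent protein. Cells of that Cre nose were captured once after flow sorting and once without it. Every suspension was dissociated with papain and collagenase and was frozen before capture. The labels do not say which Prokr2Cre library was sorted. The deposited names call library 1 unsorted and library 2 sorted, and the text below keeps the library numbers. Library 2 held 22 of the 36 cells gated as terminal nerve over all libraries. Its levels have no replicate.

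WT replicates 3 and 4 shared 7386 cell barcodes, against 1 to 34 for every other pair of libraries, so replicate 3 was left out and 4 WT libraries remained (replicates 1, 2, 4 and 5). After a filter on genes and mitochondrial counts, 31437 cells were kept in the 6 libraries, from 1110 to 10489 a library, with medians of 5086 to 13620 unique molecular identifiers (UMIs, each counting 1 captured transcript) per cell. Cells were assigned to classes by counting how many genes of fixed marker lists each held, and 3.69% to 17.9% of a library's cells passed no gate. Such a gate is a range of marker counts rather than a natural type. The progenitor gate was the loosest, with 62.9% of its cells at the minimum of 3 markers and a median of 5 epithelial markers. In the bone gate 50.5% of cells were at the minimum, with a median of 4 mesenchyme markers. A level below is a CPM value: the UMIs of a gene over the cells of a class in 1 library, relative to all UMIs of those cells, in the usual CPM scaling. It is given as mean ± SD over the WT libraries. The labels' protocol gives 5 WT noses but ties no nose to a library, so p-values measure the spread between libraries. Intervals for a single library are exact at 95% and cover counting error only.

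**Figure D1:**
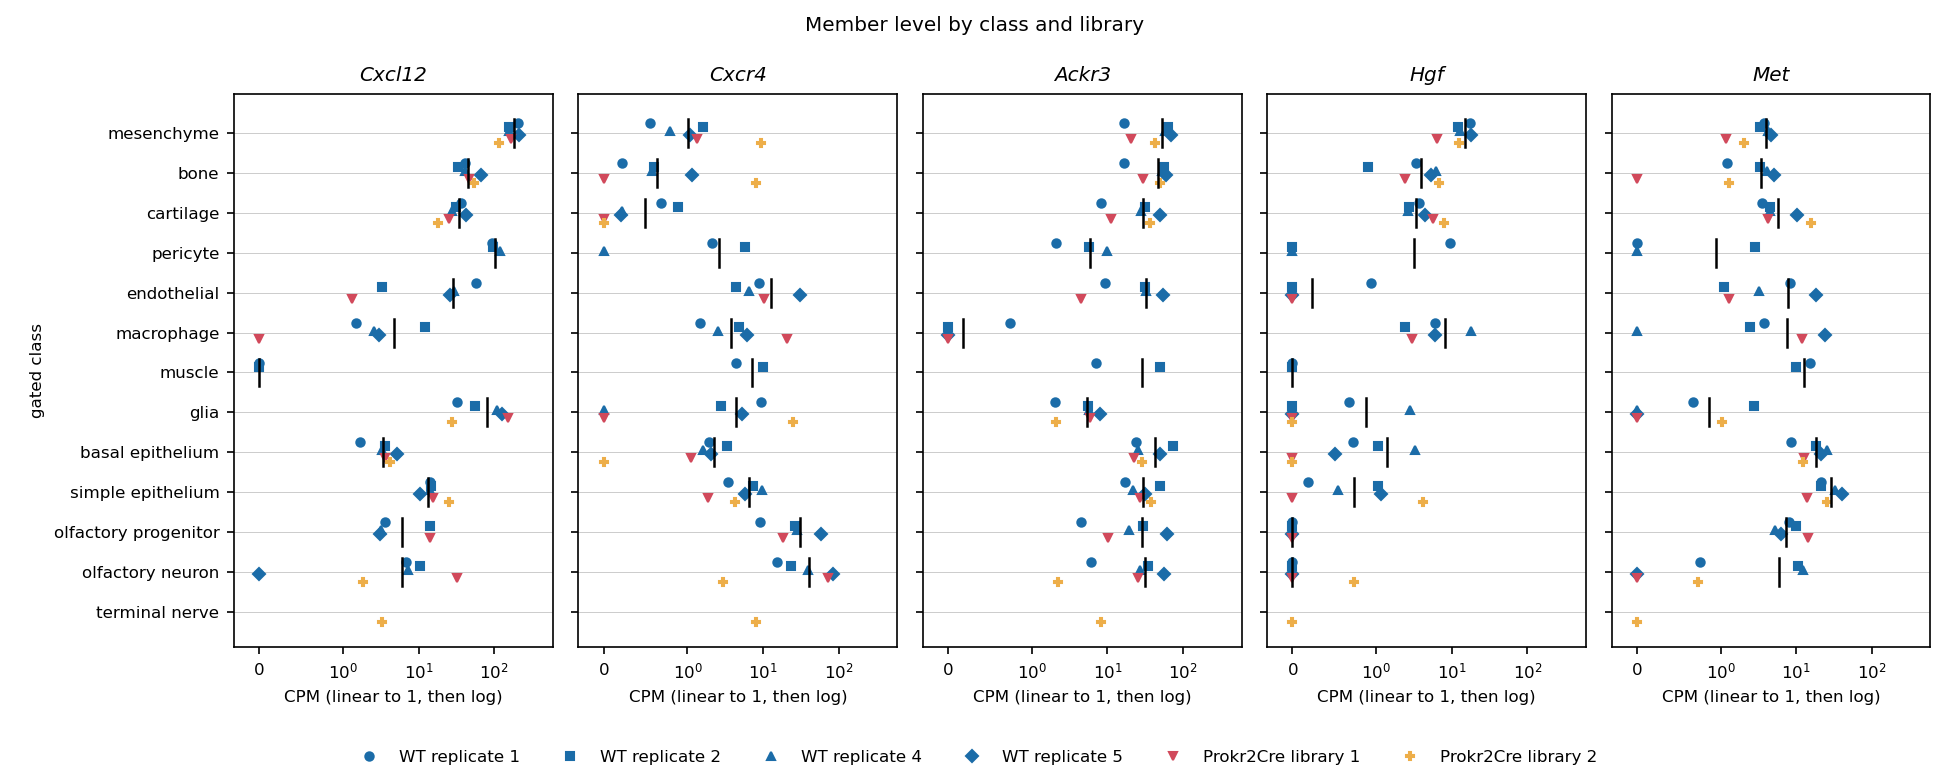
Level of each gene (panels) by gated class (rows) in CPM, on an axis that is linear to 1 and logarithmic above. Symbols are libraries with at least 10 cells of the class (9 muscle cells of Prokr2Cre library 2 are not drawn), and black bars are means over the WT libraries. Cxcl12 in mesenchyme lies at 155.9 to 211 CPM in WT, and Prokr2Cre library 2 stands apart for Cxcr4 in mesenchyme, bone and glia.

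Cxcl12 was the most abundant of the 5 transcripts and its main source was the mesenchyme. In mesenchyme it stood at 207, 158, 155.9 and 211 CPM in WT replicates 1, 2, 4 and 5, a mean of 183 ± 30.2 CPM (SD, n = 4). All 4 values lay above every WT value of the next class, the pericytes that wrap small vessels, where the mean was 103 ± 13.9 CPM (n = 3). Glia came next at 32.2, 56.5, 109.8 and 126 CPM, and their range overlapped those of both pericytes and bone. Bone cells held 45.7 ± 14.3 CPM and cartilage 34.5 ± 6.02 CPM. Simple epithelium held 13.3 ± 1.95 CPM and basal epithelium 3.40 ± 1.41 CPM. Between cartilage and simple epithelium lay endothelial cells (28.8 ± 21.9 CPM, or 51.5 CPM as a mean over each cell's own CPM) and other neurons (22.4 ± 28.6 CPM), and between simple and basal epithelium lay olfactory neurons (6.11 ± 4.39 CPM), progenitors (6.06 ± 5.53 CPM) and macrophages (4.78 ± 4.91 CPM). With these included, each class from pericytes down overlapped the next, except that basal epithelium stood apart from muscle, where no Cxcl12 UMI was found in 78 cells.

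After each cell was thinned to 2000 UMIs, 23.1% ± 2.78 of mesenchyme cells and 17.7% ± 11.2 of glia held a Cxcl12 UMI. The same share was 1.28% in macrophages, 0.620% in basal epithelium, 0.418% in olfactory neurons and 0 in muscle. The part of free RNA in these shares was not measured. Without thinning the mesenchyme shares were 35.7% to 53.8% in WT, at median depths of 5019 to 11420 UMIs a cell. Endothelial Cxcl12 was uneven between libraries, at 56.8, 3.29, 29.1 and 25.9 CPM, and 1 endothelial cell of WT replicate 1 alone held 34 UMIs. Prokr2Cre libraries 1 and 2 held 168 CPM (95% interval 162 to 175) and 115 CPM (107 to 123) in mesenchyme. Their glia held 152 CPM (113 to 199.8) in 20 cells and 27.4 CPM (17.9 to 40.2) in 49 cells.

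Within mesenchyme, Cxcl12 was not even. Pairs of genes that mark known nasal mesenchyme regions were used to split the mesenchyme cells, and cells with a UMI of both genes were set beside all other mesenchyme cells of the same library. The 604 cells with both Aldh1a2, a retinoic acid synthesis enzyme, and Cldn11, a tight junction protein, held 424 ± 69.3 CPM (range 361.5 to 523), against 168 ± 26.3 CPM in the others. This was the highest Cxcl12 mean of the 7 pairs examined. Cells with Osr1 and Mab21l2 (1173 cells) held 327 ± 37.3 against 167 ± 29.1 CPM, and those with Pax9 and Mecom (700 cells) 268 ± 53.7 against 178.9 ± 30.0 CPM. Cells with Shox2 and Barx1 held 221 ± 5.97 against 182 ± 29.8 CPM. In these 4 splits the cells with the pair were higher in 4 of 4 WT libraries.

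The remaining splits went the other way or showed no common direction. Cells with Twist2 and Lum, genes of dermal fibroblasts, held 151 ± 18.0 against 192.9 ± 37.9 CPM and were lower in 4 of 4 libraries. The cells with a pair were deeper than the others, as the median of the libraries' median UMIs, for 6 of the 7 pairs, among them Twist2 and Lum (8038 against 6894), Aldh1a2 and Cldn11 (8201 against 7016), Shox2 and Barx1 (8166 against 6987) and Osr1 and Mab21l2 (7792 against 6951). For Pax9 and Mecom the values were 7016 and 7052. Cells with Foxp2 and Erg were higher in 2 of 4 libraries. The 47 cells with Sox2 and Sox18, a combination of the dermal condensate below hair follicles, held 1 Cxcl12 UMI, or 3.76 ± 6.52 CPM over the 3 libraries with enough cells, against 176 ± 32.2 CPM. Those same cells held 6 Cxcr4 UMIs, 11.6 ± 11.7 CPM against 1.09 ± 0.438 CPM, all of them in 2 of the 3 libraries. Ackr3 was lower in the cells with the pair in 4 of 4 libraries for Shox2 and Barx1 (31.6 ± 16.7 against 53.2 ± 24.6 CPM) and for Pax9 and Mecom (43.5 ± 24.2 against 52.8 ± 24.4 CPM). It was higher in 4 of 4 for Foxp2 and Erg (62.9 ± 28.4 against 51.3 ± 23.5 CPM) and for Osr1 and Mab21l2 (56.8 ± 26.1 against 51.9 ± 24.1 CPM). The pairs were chosen with these data already known, and their differences were not tested.

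**Figure D2:**
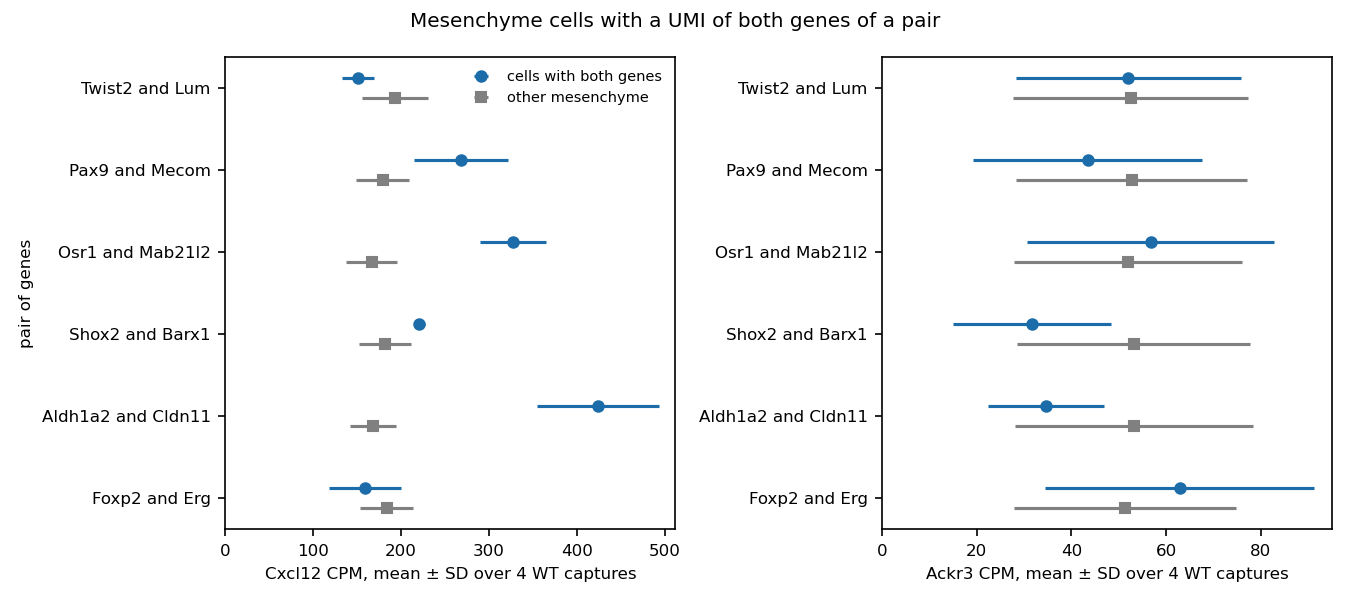
Cxcl12 (left) and Ackr3 (right) in CPM in mesenchyme cells that hold a UMI of both genes of a pair (blue) and in all other mesenchyme cells (grey), as mean with bars of 1 SD over the 4 WT libraries. For Cxcl12 the cells with Aldh1a2 and Cldn11 lie farthest to the right (424 CPM). The Ackr3 bars include the spread between libraries, in which replicate 1 is low on both sides of each split.

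Hgf was the scarcer ligand and was also mesenchymal. In mesenchyme it stood at 17.3, 11.9, 12.9 and 18.2 CPM in WT replicates 1, 2, 4 and 5, or 15.1 ± 3.14 CPM. Macrophages came next at 5.91, 2.42, 17.7 and 6.07 CPM (8.03 ± 6.67), from 18 UMIs in 220 cells, and their range overlapped that of mesenchyme. Bone (3.90 ± 2.30 CPM) and cartilage (3.35 ± 0.835 CPM) followed. The 9 pericyte UMIs all came from WT replicate 1. Epithelium held 0.953 ± 0.515 CPM. No Hgf UMI was found in the 336 olfactory neurons, the 263 progenitors, the 99 other neurons or the 78 muscle cells of the WT libraries, where 3 UMIs, the floor used for a count of 0, would be 0.807 CPM in olfactory neurons, 0.795 in progenitors, 3.07 in other neurons and 2.45 in muscle. After thinning, 2.63% ± 0.513 of mesenchyme cells held a Hgf UMI.

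The Prokr2Cre libraries held 6.29 CPM (5.06 to 7.74) and 12.6 CPM (10.1 to 15.6) of Hgf in mesenchyme, so library 1 lay below the 4 WT libraries. Among the mesenchyme splits, cells with Twist2 and Lum held less Hgf than the others in 4 of 4 WT libraries, 10.7 ± 2.45 against 16.4 ± 3.76 CPM. Cells with Pax9 and Mecom held 21.5 ± 5.64 against 14.8 ± 3.39 CPM and were higher in 3 of 4. The 2 ligands met in single cells: after thinning, 40, 38, 28 and 21 mesenchyme cells of WT replicates 1, 2, 4 and 5 held a UMI of both Cxcl12 and Hgf. The products of the 2 shares came to 30.9, 23.0, 19.1 and 12.9 cells, lower in all 4 libraries.

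Cxcr4, the signalling receptor for CXCL12, had its highest means in the olfactory lineage. Olfactory neurons held 15.1, 23.3, 39.4 and 84.0 CPM in WT replicates 1, 2, 4 and 5 (40.5 ± 30.7 CPM), from 20, 20, 55 and 12 UMIs. Replicate 5 had 11 olfactory neurons, so its value has a counting interval of 43.4 to 147 CPM. Progenitors held 8.997, 26.5, 28.6 and 59.1 CPM (30.8 ± 20.8 CPM). The 2 classes overlapped, and replicate 1 was the lowest and replicate 5 the highest in both. Endothelial cells held 8.85, 4.38, 6.47 and 31.1 CPM (12.7 ± 12.4 CPM), a range that overlapped those of olfactory neurons and progenitors. Other neurons held 12.3 ± 6.61 CPM (10 UMIs), muscle 7.20 ± 3.89 CPM (6 UMIs), simple epithelium 6.54 ± 2.64 CPM and glia 4.38 ± 4.00 CPM. Mesenchyme held 1.02 ± 0.460 CPM and lay below basal epithelium (2.24 ± 0.754 CPM) with no overlap. Bone and cartilage were lower still, at 0.636 and 0.499 CPM, each overlapping its neighbour in the order. After thinning, 8.24% ± 6.77 of olfactory neurons and 0.190% ± 0.139 of mesenchyme cells held a Cxcr4 UMI. The unthinned means were 20.2% and 0.759%.

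Within the olfactory neurons, Cxcr4 lay in cells without Omp, the olfactory marker protein that appears as the neurons mature. The 41 WT olfactory neurons with an Omp UMI (28, 9, 2 and 2 cells) held no Cxcr4 UMI, with an exact upper limit of 6.72 CPM. The 295 cells without Omp held all 107 Cxcr4 UMIs, at 21.2, 26.1, 40.6 and 114 CPM in replicates 1, 2, 4 and 5. The cells with Omp were the deeper ones in each library (median 8403 to 20030 against 6183 to 14950 UMIs). A split by Gng13, a G protein subunit of maturing olfactory neurons, went the same way. Cxcr4 was 29.5, 34.0, 55.3 and 164 CPM in cells without a Gng13 UMI and 7.95, 11.9, 19.4 and 0 CPM in those with one. Prokr2Cre library 1 held 107 CPM in 11 cells without Omp and no UMI in 4 cells with it. The splits were chosen with these data known and were not tested. Both genes also belong to the gate for olfactory neurons.

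Among progenitors, cells with a UMI of Neurog1, which marks precursors leaving the cell cycle, held 40.7 ± 28.1 CPM of Cxcr4 against 18.2 ± 8.66 CPM in the others. They were higher in replicates 1, 4 and 5 and lower in replicate 2. The split was not tested.

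**Figure D3:**
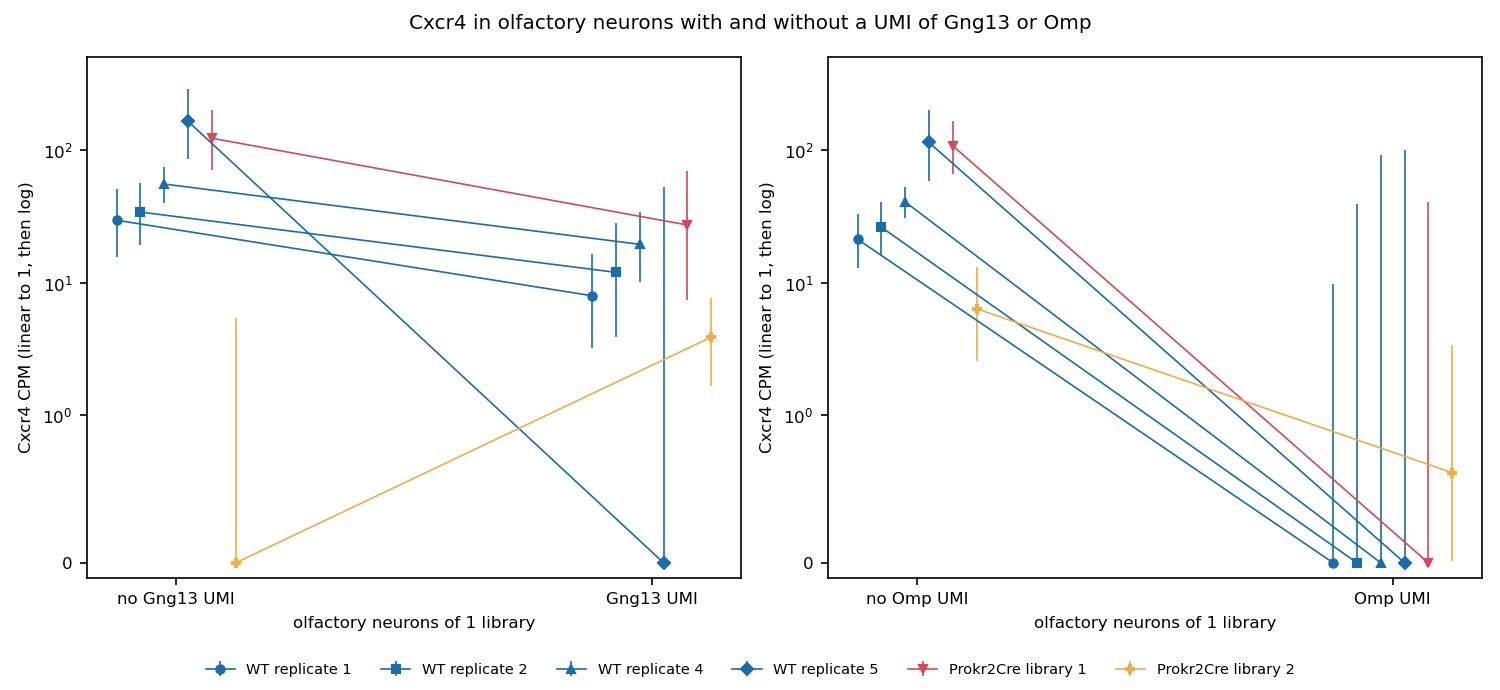
Cxcr4 in CPM (linear to 1, then logarithmic) in the olfactory neurons of each library without and with a UMI of Gng13 (left) or Omp (right). Lines join the 2 sides of 1 library and bars are exact 95% Poisson intervals. With Omp, the 4 WT libraries and Prokr2Cre library 1 are at 0, with upper bounds that reach 99.0 CPM where only 2 cells were found.

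Prokr2Cre library 2 did not follow this order. Its 142 olfactory neurons held 8 Cxcr4 UMIs, 2.92 CPM (1.26 to 5.76), below all 4 WT libraries and below the 71.9 CPM (43.9 to 111) of library 1. In those neurons 55.6% of cells held Omp, against 1.68% to 23.1% in the WT libraries. The cells without Omp were also low, at 6.36 CPM (2.56 to 13.1), against 21.2 CPM in the lowest WT library. In the same library Cxcr4 was higher than in WT in cells that otherwise had little: 9.30 CPM (7.16 to 11.9) in mesenchyme, where 51 of 533 cells (9.57%) held a UMI, 8.05 CPM (4.85 to 12.6) in bone and 25.3 CPM (16.2 to 37.7) in glia. The WT ranges were 0.558 to 1.62 CPM in mesenchyme, 0.223 to 1.14 in bone and 0 to 9.40 in glia. Over all its kept cells the library held 8.34 CPM of Cxcr4, against 1.98 to 3.41 CPM in WT and 3.35 CPM in library 1. Both Prokr2Cre libraries come from 1 nose and share its strain. Sorting and library cannot be told apart here.

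Ackr3, the scavenging receptor, was found in most classes. Mesenchyme held 16.6, 64.3, 58.3 and 70.2 CPM in WT replicates 1, 2, 4 and 5 (52.3 ± 24.3 CPM). Bone held 46.4 ± 20.04 CPM, basal epithelium 43.2 ± 23.7, endothelial cells 32.0 ± 18.4, olfactory neurons 31.0 ± 20.6, simple epithelium 29.7 ± 14.3, cartilage 29.4 ± 17.0 and progenitors 28.8 ± 24.5 CPM. Each of these overlapped its neighbour in the order. Pericytes (5.91 ± 3.92 CPM) and glia (5.29 ± 2.47 CPM) were low. Macrophages held 1 Ackr3 UMI in 220 cells and lay below glia with no overlap.

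WT replicate 1 was the lowest WT library for Ackr3 in mesenchyme, bone, olfactory neurons and endothelial cells. Over all kept cells it held 13.9 CPM, against 54.6, 48.7 and 60.5 CPM in replicates 2, 4 and 5, while Prokr2Cre libraries 1 and 2 held 19.4 and 30.5 CPM. The file headers give Cell Ranger 6.0.1 for replicate 1, 7.0.0 for the other WT libraries and 6.1.2 for both Prokr2Cre libraries. The part of the counting version in the Ackr3 levels was not tested. The other 4 genes showed no such gap: replicate 1 held 108 CPM of Cxcl12, 1.98 of Cxcr4, 8.98 of Hgf and 5.19 of Met, against 97.6 to 144, 2.37 to 3.41, 7.59 to 12.4 and 6.104 to 7.74 CPM in the other WT libraries.

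Met, the HGF receptor, was highest in epithelium. In simple epithelium it stood at 21.6, 21.1, 32.3 and 40.5 CPM in WT replicates 1, 2, 4 and 5 (28.9 ± 9.30 CPM), and in basal epithelium at 8.66, 18.6, 25.3 and 21.6 CPM (18.5 ± 7.11 CPM). The 2 overlapped. Muscle held 15.1 and 9.96 CPM in the 2 WT libraries with enough muscle cells, from 17 UMIs and 1 UMI. In 9 muscle cells of Prokr2Cre library 2 it was 57.0 CPM (33.8 to 90.1). Other neurons held 14.2 ± 19.99 CPM from 6 UMIs in 99 cells. Endothelial cells (7.72 ± 7.60 CPM), macrophages (7.60 ± 11.2), progenitors (7.41 ± 2.10) and olfactory neurons (5.85 ± 6.37) came lower, and each overlapped the next. As a mean over each cell's own CPM, the value was 5.88 in other neurons, 4.41 in macrophages and 3.35 in olfactory neurons. Olfactory neurons of replicates 1 and 5 held 1 and 0 Met UMIs, and those of replicates 2 and 4 held 9 and 17. Mesenchyme held 4.00 ± 0.596 CPM and glia 0.856 ± 1.30 CPM. After thinning, 4.04% ± 1.86 of epithelial cells and 0.651% ± 0.0873 of mesenchyme cells held a Met UMI.

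Among the pairs used to split mesenchyme, Met was highest in cells with Foxp2 and Erg, at 9.43 ± 4.302 against 3.63 ± 0.395 CPM, and higher in 4 of 4 WT libraries. Among progenitors it lay in the cells without Neurod1, a factor of late precursors: 10.1 ± 2.22 CPM against 2.62 ± 2.25 CPM with it, from 26 and 4 UMIs. Neither split was tested.

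Differences between classes were tested on UMI sums per class and WT library with edgeR's quasi-likelihood test, the library as a block, and Benjamini-Hochberg adjustment over 13641 genes. Where 1 class had no UMI, the difference is given as a bound against 3 UMIs over the class. Over 10 contrasts, Cxcl12 was called in 9, Hgf in 7, Ackr3 in 6, Cxcr4 in 5 and Met in 3. Most contrasts share the mesenchyme sums, so they are not independent of each other.

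**Figure D4:**
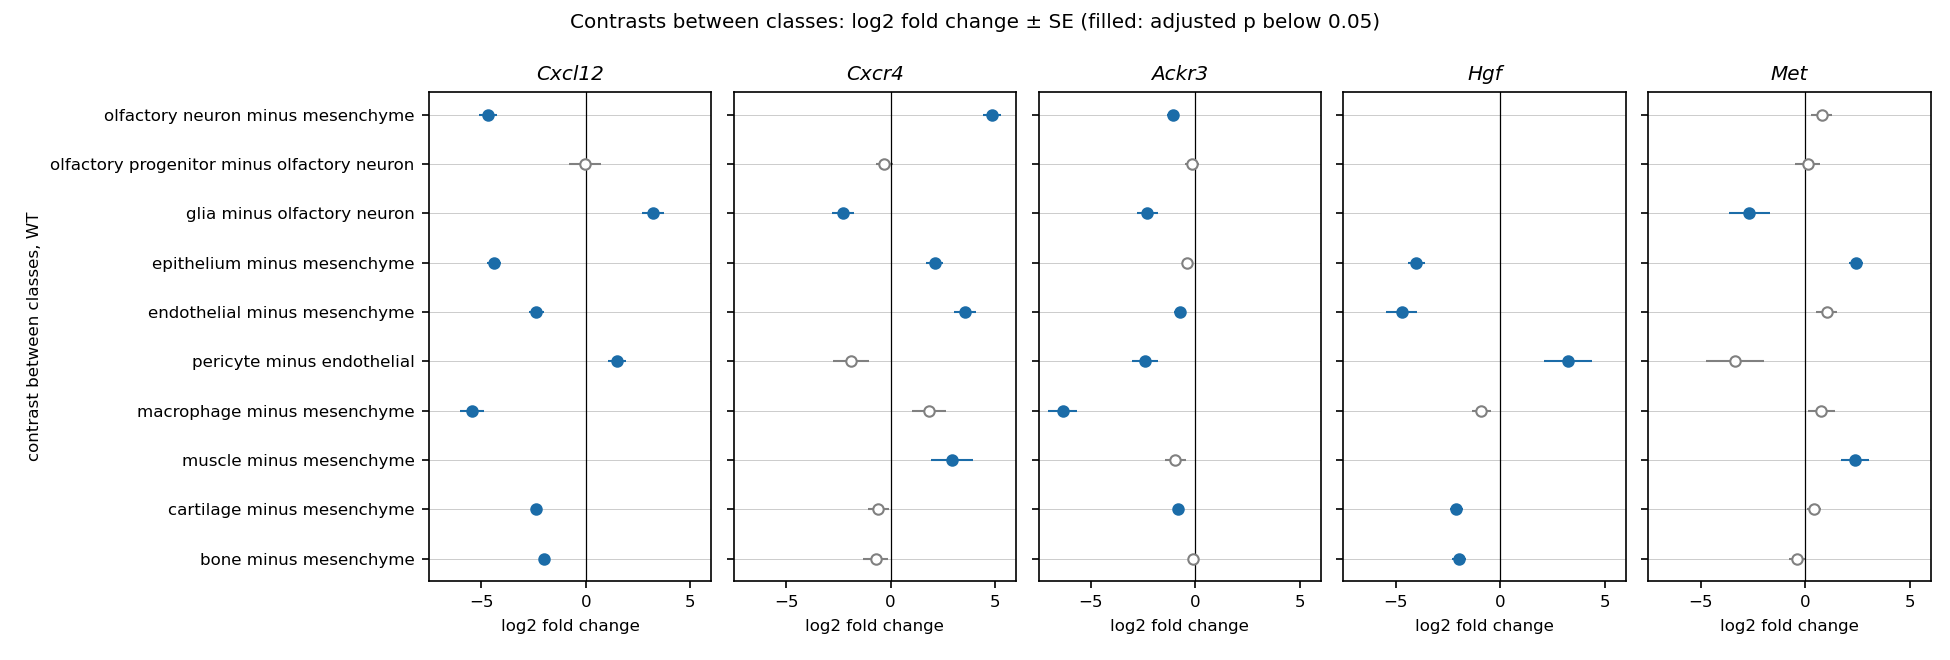
Log2 fold change of each gene (panels) in the 10 contrasts between classes (rows), with bars of 1 SE from edgeR. Filled points have an adjusted p below 0.05. Values that rest on a class with no UMI, and Hgf in glia against olfactory neurons, are not drawn. Cxcr4 in olfactory neurons against mesenchyme is at 4.86, and every Cxcl12 point of a contrast with mesenchyme is negative.

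Olfactory neurons carried the receptor and mesenchyme the ligands. Against mesenchyme, Cxcr4 was higher in olfactory neurons by 4.86 ± 0.44 on the log2 scale (SE, adjusted p = 1.9e-12) and in 4 of 4 libraries. Cxcl12 was lower (-4.67 ± 0.45, adjusted p = 1.3e-11), Hgf was at least 18.7-fold lower, and Ackr3 was lower by a smaller step (-1.08 ± 0.26, adjusted p = 0.00047), each in 4 of 4 libraries. Met did not pass (0.79 ± 0.51, adjusted p = 0.18). On leaving out 1 library it ran from 0.15 to 1.38, and it was called only without WT replicate 1. So 4 of 5 genes were called, where 55.8% of all genes tested were (27.6% higher and 28.2% lower). Without the library block Ackr3 did not pass either (-1.11, adjusted p = 0.14).

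Of the other genes of the CXCL12 axis (signalling partners, competing ligands and the adrenomedullin system that ACKR3 also scavenges), 3 of 23 tested were higher in olfactory neurons and 13 lower, with a median of -0.79 (-0.71 with the 3 genes that lacked UMIs on 1 side set to their bound) against -0.06 over all genes. Elmo1, a partner of DOCK proteins in Rac activation, was higher by 2.36 and Arrb2, a beta-arrestin, by 2.28. Ramp2 and Ramp3, which turn the calcitonin-like receptor into an adrenomedullin receptor, were lower (-5.37 and -4.53), and the receptor itself, Calcrl, was at least 28.8-fold lower. Of the HGF axis 10 of 23 were higher and 5 lower, with a median of 0.46. St14, a protease that can activate HGF, was higher by 6.65 and Spint1, an inhibitor of such proteases, by 6.37. Cd44, a coreceptor of MET, was lower (-2.35), as was the MET adaptor Gab1 (-1.33). Of 19 other chemokine genes tested, 2 were higher and 4 lower. Of these 19, 9 lacked UMIs on at least 1 side, and some passed the count filter with few UMIs outside macrophages. Ccl27a (1.41), whose copies in the genome make its counts uncertain, was higher and Ccl7 (-4.46) lower.

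Progenitors and olfactory neurons could not be told apart by these genes. None of the 5 was called, where 31.1% of all genes were (11.8% higher and 19.3% lower). Cxcr4 differed by -0.30 ± 0.42 (adjusted p = 0.65), Ackr3 by -0.16 ± 0.33 (0.79), Met by 0.12 ± 0.60 (0.94) and Cxcl12 by -0.04 ± 0.76 (1.0), and Hgf had no UMI in either class. The pooled ratio of Cxcr4 was 0.857 (95% counting interval 0.642 to 1.14). With 1 more marker required by each gate the signs of Cxcr4 (1.22), Ackr3 (0.19) and Met (-1.03) turned, still not called. Leaving out 1 library also turned the signs of Cxcl12 (up to 0.28), Ackr3 (up to 0.092) and Met (down to -0.37). In the CXCL12 axis 5 of 23 genes were higher in progenitors and 1 lower. Rgs16, which shortens G protein signalling, was higher by 2.06, Grk3, a kinase that desensitises receptors, by 1.71, and the nuclear protein gene Hmgb1 by 1.04, while Arrb2 was lower (-2.39). In the HGF axis 0 were higher and 5 lower, among them the semaphorin receptor Plxnb2 (-1.52) and the phosphatase Ptprj (-1.26).

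Glia, the class of ensheathing cells that accompany olfactory axons, held more of the ligand and less of the receptors than olfactory neurons. Cxcl12 was higher in glia (3.22 ± 0.54, adjusted p = 3.9e-06) in 4 of 4 libraries. Cxcr4 (-2.26 ± 0.53, adjusted p = 0.00047), Ackr3 (-2.30 ± 0.50, adjusted p = 0.00017) and Met (-2.67 ± 0.99, adjusted p = 0.024) were also lower. The first 2 were lower in 4 of 4 libraries, and Met in 3 of 4, since WT replicate 5 had no Met UMI in its 11 olfactory neurons. Thus 4 of 5 were called, where 47.5% of all genes were (20.3% higher and 27.2% lower), and Hgf was at 2 and 0 UMIs. The call for Met was lost without WT replicate 2 (-3.49) or 4 (-1.70), and that for Cxcr4 with 1 more marker in the gates (-1.12). Without WT replicate 1 the Cxcr4 difference was -3.70, and without replicate 4 it was -1.69, both called. Glia held more Gnai1, an inhibitory G protein subunit (1.96), and less Elmo1 (-3.90), with 8 of 23 CXCL12 axis genes higher and 4 lower. Of the HGF axis 5 of 23 were higher, led by Ptprj (3.50), and 9 lower, among them St14, Spint1 and Tmprss2, at least 30.6-fold, 25.6-fold and 6.33-fold lower.

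Epithelium and mesenchyme divided the HGF system between them. Met was higher in epithelium (2.43 ± 0.33, adjusted p = 5.9e-08) and Hgf lower (-4.01 ± 0.41, adjusted p = 7.6e-10), each in 4 of 4 libraries. Cxcl12 was lower (-4.38 ± 0.33, adjusted p = 9.2e-15) and Cxcr4 higher (2.12 ± 0.41, adjusted p = 3.0e-05), also in 4 of 4. Ackr3 did not pass (-0.42 ± 0.19, adjusted p = 0.066) but did so without WT replicate 1 (-0.55) and under stricter cell filters (-0.46). The 4 calls of 5 stand beside 48.4% of all genes (22.3% higher and 26.1% lower). In the HGF axis 11 of 23 genes were higher in epithelium and 4 lower, with a median of 0.29 against -0.04 over all genes. The genes leading it were Spint1 (7.55), St14 (6.76) and Tmprss2 (5.95), a protease inhibitor and membrane proteases of epithelia. In the CXCL12 axis 2 were higher, Adm (3.30), which encodes adrenomedullin, and the cytokine Mif (0.71), and 10 lower, led by Calcrl (-3.69) and Ramp2 (-3.58).

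Endothelial cells held more Cxcr4 than mesenchyme (3.56 ± 0.50, adjusted p = 1.5e-07, 4 of 4 libraries), with less Cxcl12 (-2.37 ± 0.35, adjusted p = 3.4e-07) and less Hgf (-4.72 ± 0.75, adjusted p = 4.2e-06, from 2 UMIs). Without WT replicate 1 the Cxcl12 difference was -3.39. The 2 Hgf UMIs came from that library, so without it the class held none and no Hgf difference is given. Ackr3 was lower (-0.74 ± 0.26, adjusted p = 0.018), a call kept under 7 of 13 alternative settings. It was lost without WT replicate 1 (-0.63), 2 (-0.62) or 4 (-0.56), without the library block and in further settings given below. Met did not pass (1.04 ± 0.51, adjusted p = 0.096). The 4 of 5 called compare with 45.7% of all genes (17.7% higher and 28.1% lower). In this class 13 of 23 CXCL12 axis genes were higher and 5 lower, with a median of 0.88 against -0.25. The kinase subunit Pik3cg (5.75), Elmo1 (3.78) and Ramp2 (3.60) led the rise, and Cxcl14 (-7.72), a chemokine of skin mesenchyme, the fall. Of the HGF axis 8 were higher, led by the laminin receptor subunit Itga6 (5.73) and the urokinase gene Plau (4.04), and 5 lower.

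Pericytes, beside the endothelium, held more Cxcl12 than endothelial cells (1.49 ± 0.44, adjusted p = 0.011) and less Ackr3 (-2.39 ± 0.62, adjusted p = 0.0036) in 3 of 3 libraries with both. Neither passed without WT replicate 2 (1.13 and -2.20), and without replicate 1 the Cxcl12 difference was 2.85. Hgf was also called (3.23 ± 1.13, adjusted p = 0.037), but its 9 pericyte UMIs and 2 endothelial UMIs all came from WT replicate 1. Without that library neither class held a Hgf UMI, so no difference is given. Cxcr4 (-1.90, adjusted p = 0.12) and Met (-3.34, adjusted p = 0.080) did not pass, so 3 of 5 were called beside 22.6% of all genes (11.3% higher and 11.2% lower). Here 2 of 23 CXCL12 axis genes were higher, among them Grk3 (4.49), and 9 lower, among them Ramp2 (-4.87). Of the HGF axis 7 were higher and 3 lower, and of the other chemokines 3 were higher, among them Ccl2 (4.27), a chemokine for monocytes, and 1 lower. In this contrast 10 of the 19 other chemokine genes tested lacked UMIs on at least 1 side.

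Macrophages held little Cxcl12 and 1 Ackr3 UMI. Against mesenchyme, Cxcl12 (-5.45 ± 0.58, adjusted p = 1.6e-10) and Ackr3 (-6.34 ± 0.70, adjusted p = 3.9e-10, from 1 UMI) were lower in 4 of 4 libraries. That 1 UMI came from WT replicate 1, so without this library macrophages held no Ackr3 UMI and no difference is given. Hgf (-0.90 ± 0.47, adjusted p = 0.11), Cxcr4 (1.83 ± 0.83, adjusted p = 0.057) and Met (0.78 ± 0.63, adjusted p = 0.30) did not pass. The 2 of 5 called stand beside 55.8% of all genes (21.5% higher and 34.3% lower). Hgf passed under 3 of 13 alternative settings and ran from -1.35 to -0.47 on leaving out 1 library. Cxcr4 rested on 7 UMIs and passed under 7 of 13 alternative settings (1.87 to 2.10), and Met changed sign without WT replicate 5 (-0.26). Of the 45 other chemokine genes in the files, 19 passed the count filter, some of them with few UMIs outside macrophages, so that the filter itself favours genes that are high there and no count of them is given. Among them Ccl24 (12.57), Ccl3 (12.08) and Ccl4 (11.93), chemokines that macrophages secrete, held 4, 4 and 14 UMIs in mesenchyme. Within the CXCL12 axis the blood cell genes Rac2 (9.53) and Dock2 (9.20) were higher, in a total of 9 higher and 11 lower.

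Muscle cells, compared in 2 WT libraries, held more Met (2.38 ± 0.68, adjusted p = 0.0095) and Cxcr4 (2.93 ± 0.99, adjusted p = 0.030, from 6 UMIs) than mesenchyme. They held no Cxcl12 or Hgf UMI, at least 74.7-fold and 6.14-fold lower, and Ackr3 did not pass (-0.97 ± 0.50, adjusted p = 0.17). Thus 4 of 5 were called, where 21.4% of all genes were (6.64% higher and 14.7% lower). Without the library block neither Met (2.07) nor Cxcr4 (2.65) passed. The lists held 3 higher and 5 lower of 23 CXCL12 axis genes, with Rgs16 higher (2.39), 0 and 1 of the HGF axis and 0 and 4 of the other chemokines. Here 15 of the 19 other chemokine genes tested lacked UMIs on at least 1 side.

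The skeletal classes were lower in both ligands. Cartilage was below mesenchyme in Cxcl12 (-2.36 ± 0.28, adjusted p = 1.1e-08), Hgf (-2.10 ± 0.32, adjusted p = 8.1e-06) and Ackr3 (-0.85 ± 0.19, adjusted p = 0.00065), 3 of 5 beside 23.7% of all genes (11.1% higher and 12.6% lower), and Ackr3 did not pass without the library block (-0.80). Bone was below it in Cxcl12 (-1.98 ± 0.28, adjusted p = 7.6e-07) and Hgf (-1.97 ± 0.34, adjusted p = 6.4e-05), 2 of 5 beside 18.8% (7.37% higher and 11.5% lower), with Ackr3 at -0.10 ± 0.19 (adjusted p = 0.77). Cxcr4 and Met passed in neither. Of the CXCL12 axis, 0 of 23 were higher in cartilage and 10 lower, led by Cxcl14 (-3.57). In bone 2 were higher, Elmo1 (2.31) and Mif (0.63), and 5 lower. In the HGF axis 6 were higher and 4 lower in cartilage and 5 and 2 in bone.

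Terminal nerve and olfactory neurons were set side by side in Prokr2Cre library 2, which held 22 and 142 of them. Prokr2, which the gate did not use, stood at 1072 CPM in the terminal nerve cells (20 of 22 cells) and 133 CPM in the olfactory neurons. Gnrh1 stood at 44.1 CPM in the former. The terminal nerve cells held 5 Cxcr4 UMIs, 8.16 CPM (2.65 to 19.0), against 8 UMIs and 2.92 CPM (1.26 to 5.76) in the olfactory neurons, a ratio of 2.79 (0.718 to 9.67). All kept cells of the library held 8.34 CPM of Cxcr4 and its mesenchyme 9.30 CPM, so the terminal nerve value was close to the level of the whole library. Ackr3 was at 5 UMIs, 8.16 CPM (2.65 to 19.0), against 6 UMIs and 2.19 CPM (0.805 to 4.77), a ratio of 3.72 (0.898 to 14.6), beside 30.5 CPM over all kept cells. Cxcl12 was at 2 against 5 UMIs, 3.26 against 1.83 CPM, a ratio of 1.79 (0.17 to 10.9). All 3 intervals include 1, and with 1 library no test was made.

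The shares of cells with a UMI were 22.7% (7.82 to 45.4) for Cxcr4 and 13.6% (2.91 to 34.9) for Ackr3 in terminal nerve cells, against 3.52% (1.15 to 8.03) and 4.23% (1.57 to 8.97) in olfactory neurons. The terminal nerve cells were deeper, at a median of 26000 against 19170 UMIs. After thinning to 2000 UMIs no terminal nerve cell held a UMI of any of the 5 genes, and 1 olfactory neuron held Ackr3. The comparison is therefore not detectable at that depth. With 1 more marker required, 14 terminal nerve cells remained and the Ackr3 ratio was 5.82 (1.08 to 31.2). With a minimum of 2 markers, an alternative chosen after seeing the data, 38 cells passed and the ratios were 1.87 (0.482 to 6.49) for Cxcr4 and 3.00 (0.801 to 11.2) for Ackr3. Neither Hgf nor Met had a UMI in the terminal nerve cells, with an exact upper limit of 6.02 CPM each, and the olfactory neurons held 2 UMIs of each, 0.731 CPM (0.0885 to 2.64).

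Within the terminal nerve cells of that library, the 9 with a Gnrh1 UMI held 4 of the 5 Cxcr4 UMIs and 4 of the 5 Ackr3 UMIs, and the other 13 held 1 of each. The cells with Gnrh1 were deeper (median 29100 against 23030 UMIs), and the intervals overlapped for both genes (3.71 to 34.9 against 0.0794 to 17.5 CPM). In 2 terminal nerve cells Cxcr4 and Ackr3 occurred together. Over all kept cells, whatever their class, 2 cells of that library held at least 10 Gnrh1 UMIs. They held 4 Cxcr4 UMIs, 52.4 CPM (14.3 to 134), and 0 Ackr3 UMIs. The 1 such cell each of WT replicates 1 and 2 held 0 Cxcr4 UMIs, with upper limits of 120 and 433 CPM. This split was not tested. In the other libraries few cells passed the terminal nerve gate. WT replicate 1 held 9, which had no Prokr2 or Gnrh1 UMI, with 1 Cxcr4, 3 Ackr3, 1 Cxcl12 and 1 Met UMIs, replicate 4 held 2 with 1 Cxcr4 UMI, and neither the 1 cell of replicate 2 nor the 2 of Prokr2Cre library 1 held any.

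**Figure D5:**
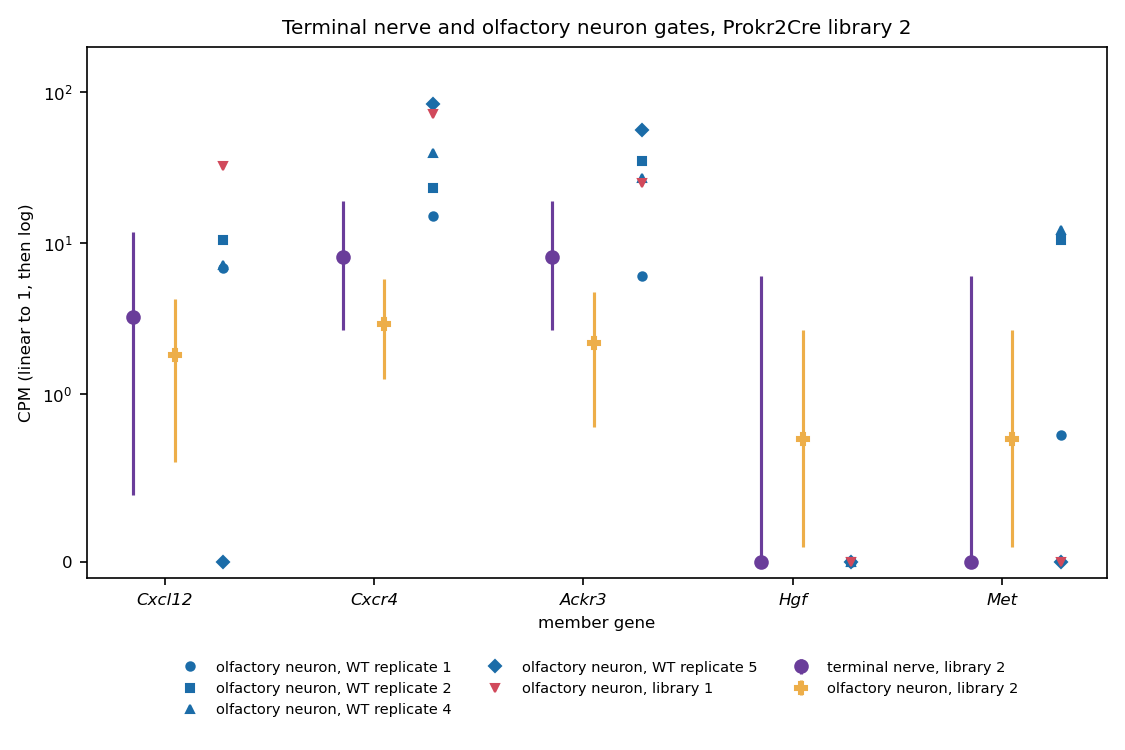
The 5 genes in CPM (linear to 1, then logarithmic) in the terminal nerve cells (purple) and olfactory neurons (orange) of Prokr2Cre library 2, with exact 95% Poisson intervals, beside the olfactory neurons of the other libraries without intervals. The purple and orange intervals overlap for each gene, and the orange Cxcr4 value (2.92 CPM) lies below the olfactory neurons of all other libraries.

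Single cells were also searched for both receptors of CXCL12. After thinning, Cxcr4 alone, Ackr3 alone and both were found in 3, 1 and 1 of 120 olfactory neurons of WT replicate 1. Replicate 2 had 4, 4 and 0 of 85 such cells, replicate 4 had 8, 7 and 0 of 119, and replicate 5 had 1, 0 and 1 of 11. The products of the 2 shares came to 0.0667, 0.188, 0.471 and 0.182 cells, too few to compare with these counts. Without thinning, 2, 4, 8 and 1 olfactory neurons held both. In mesenchyme, 21 of 3683, 101 of 4769, 111 of 4255 and 46 of 1826 cells of replicates 1, 2, 4 and 5 held Cxcl12 and Ackr3 after thinning. The products of the 2 shares came to 30.2, 119.7, 95.5 and 57.1 cells, so that replicate 4 lay above its product and the other 3 below. At this depth most cells that express a gene hold no UMI of it, so absence in a cell says little.

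The pattern of each gene over the 45 WT sums of class and library was compared with that of 9517 genes by Pearson's r of log2(CPM + 1). The closest were Tgfb1i1 (r = 0.82), Fbln2 (0.81) and Rassf8 (0.79) for Cxcl12, and Tomm34 (0.81), Nol4l (0.80) and Nabp2 (0.78) for Cxcr4. For Ackr3 they were Mcc (0.83), Robo1 (0.83) and Rab30 (0.82), and for Hgf they were Hacd4 (0.79), Rspo1 (0.78) and Osr2 (0.77). Met had no gene as close, with Letmd1 (0.61), Commd3 (0.60) and Trim27 (0.59) leading. Among the 5 themselves, r was -0.57 between Cxcl12 and Cxcr4, -0.64 between Cxcr4 and Hgf, 0.42 between Cxcl12 and Hgf, 0.01 between Cxcr4 and Ackr3 and -0.13 between Hgf and Met. Sums of 1 library share its depth and preparation, and these values describe the 45 sums only.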

How the data were processed

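The deposited files hold raw UMI counts per gene and cell barcode. Per the submitters' processing notes the authors used mm10, Cell Ranger 4 and Seurat 4.3.0, and per the file headers the counts came from Cell Ranger 6.0.1, 7.0.0 or 6.1.2. Cell barcodes below 500 detected genes or above 10% mitochondrial UMIs were dropped, as was WT replicate 3. Library totals ran from 16773781 to 89800259 UMIs.

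Classes were gated by markers with a UMI. The minimum was 4 of 8 for neurons, 3 of 6 for progenitors, 3 of 7 for glia and 4 of 12 for epithelium (2 of 4 for basal). It was 5 of 10 for cartilage, 3 of 8 for bone, muscle and mesenchyme, 4 of 8 for endothelium, 3 of 7 for pericytes and 4 of 9 for macrophages. Within the neurons a marker counted from 2 UMIs. Olfactory neurons held at least 2 of 8 olfactory markers and terminal nerve cells at least 3 of 6 terminal nerve markers. Each also held a larger share of its own list than of the other. At most 2 mesenchyme markers were allowed, or 3 in pericytes, except in cartilage, bone and mesenchyme. The limits were set on the markers alone, after seeing them. Scrublet's automatic calls marked at most 0.416% of cells and were not used. Removing its top ranks was an alternative.

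UMI sums per class and library, from at least 10 cells, were fitted together in edgeR 4.0.16 (R 4.3.3; TMM, filterByExpr, quasi-likelihood) with the library as a block, because the sums of 1 library come from 1 suspension. Gate markers were not tested, and the threshold was an adjusted p of 0.05. DESeq2 1.42.0 was an alternative. Counts and shares used Python 3.11.15, numpy 2.4.6, scipy 1.17.1, pandas 2.3.3 and scanpy 1.11.5, and figures matplotlib 3.10.9. In simulated counts for progenitors against olfactory neurons (13357 genes), 98 of 100 genes changed by 2 on the log2 scale and 80 of 100 changed by 1 were recovered, with 15 false calls among 193. The changed genes were drawn only from genes above a minimum mean UMI count in these 2 classes. Cxcl12 (28 and 28 UMIs), Met (30 and 27) and Hgf (0 and 0) lie below that minimum, and Cxcr4 and Ackr3 only just above it. The recovery therefore does not apply to the first 3.

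The 5 genes, the lists (28 CXCL12 axis, 27 HGF axis and 47 other chemokine genes) and the splits were chosen with earlier results of these data known. The 5 genes are always named, with up to 3 called genes of the largest positive and 3 of the largest negative change per list and contrast, and the 3 genes of highest Pearson r among those with a mean of at least 10 CPM. Of the genes this rule selects, 1 is left out and not reported here.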

Additional observations from a re-analysis of the deposited data

Results flagged for a closer look

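Over 57 groups of 4 WT libraries, 8 held a library whose gap to the nearest other exceeded Dixon's 95% critical value as a share of the group's range. Chance marks about 1 in 20 groups. WT replicate 1 held 16.62 CPM of Ackr3 in bone, against 53.16 to 60.11 in the others. WT replicate 2 held 14.34 CPM of Cxcl12 in olfactory progenitors, against 3.11 to 3.599, and 12.09 CPM in macrophages, against 1.478 to 3.034. WT replicate 5 held 31.11 CPM of Cxcr4 in endothelial cells (4.383 to 8.848 elsewhere), 24.27 CPM of Met in macrophages (0 to 3.695) and 10.24 CPM of Met in cartilage (3.506 to 4.561). WT replicate 1 was the only library with Hgf in endothelial cells (0.931 CPM) and with Ackr3 in macrophages (0.739 CPM). These last 2 rest on 2 UMIs and 1 UMI, and with the other libraries at 0 any value above 0 would have been marked, so they carry no weight in the count of 8.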

How the results depend on the processing

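The alternatives kept the direction and the side of the threshold in 383 of 415 values of the 5 genes, and leaving out 1 library did so in 163 of 182. The causes of the changes below were not tested. Without the replicate block (the pairing of class sums by library), fewer genes were called: 5059 in olfactory neurons against mesenchyme, 2056 in progenitors against olfactory neurons, 3392 in epithelium, 3983 in endothelium, 1916 in pericytes, 1364 in muscle, 816 in cartilage and 492 in bone. The main counts were 7610, 4248, 6601, 6240, 3078, 2918, 3236 and 2568. Also without the block, Ackr3 was lost in olfactory neurons (-1.11), endothelium (-0.72) and cartilage (-0.80), Hgf in pericytes (3.15), and Cxcr4 (2.65) and Met (2.07) in muscle. With only the 2 classes in the fit, 3868 genes were called in glia (6478 in the main fit of all classes), 1685 in pericytes, 5393 in cartilage and 4261 in bone, and Hgf in macrophages was called (-0.96).

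In progenitors against olfactory neurons, where no gene of the 5 was called, the sign turned for Cxcl12 without a count filter (0.067), under stricter cell filters (0.00073) and without Scrublet's top ranks (0.11), and with 1 more gate marker for Cxcr4 (1.22), Ackr3 (0.19) and Met (-1.03). That stricter gate also lost Cxcr4 in glia (-1.12) and, in pericytes, Cxcl12 (1.22) and Hgf (1.95). Without Scrublet's top ranks Met in glia (-2.24) and Ackr3 in endothelium (-0.65, and -0.67 in DESeq2) were lost. Ackr3 in epithelium was called under stricter cell filters (-0.46). Without a count filter, or with WT replicate 3 in place of 4, Met was called in endothelium (1.06 and 1.27) and pericytes (-3.36 and -3.54), and replicate 3 also gave a call for Hgf in macrophages (-1.33). Cxcr4 in macrophages was called with RLE scaling (1.96), DESeq2 (1.99), no count filter (1.88), 2 classes (1.87), stricter cells (1.96), Scrublet's ranks removed (2.04) and replicate 3 for 4 (2.10).

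Leaving out 1 library gave these ranges. For Cxcl12: -0.96 to 0.28 in progenitors, -3.39 (without WT replicate 1) to -2.01 in endothelium and 1.13 to 2.85 in pericytes. For Ackr3: -0.27 to 0.092 in progenitors, -0.55 to -0.12 in epithelium, -0.96 to -0.56 in endothelium and -2.63 to -2.20 in pericytes. For Cxcr4: -3.70 (without WT replicate 1) to -1.69 in glia. For Hgf: -8.79 (without WT replicate 1) to -4.38 in endothelium, 0.071 (without WT replicate 1) to 3.35 in pericytes and -1.35 to -0.47 in macrophages, called without WT replicate 4. Without WT replicate 1 neither endothelial cells nor pericytes held a Hgf UMI. The ends of -8.79 and 0.071 are therefore output of the fit and not measured differences. For Met: 0.15 to 1.38 in olfactory neurons, called without WT replicate 1, -0.37 to 1.00 in progenitors, -3.49 to -1.70 in glia, -0.26 to 1.26 in macrophages and -0.50 to 0.081 in bone. Counts of genes ran from 1816 (without WT replicate 1) to 2963 in pericytes, and from 2035 to 3099 in cartilage and 1299 to 2226 in bone, both lowest without WT replicate 2.

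Muscle has no value with Scrublet's ranks removed, with 1 more gate marker or without WT replicate 1 or 2. Thinning to 2000 UMIs brought the CPM difference of terminal nerve minus olfactory neurons to 0 for 4 genes and -3.52 for Ackr3, and 1 more gate marker brought that of Met to 0. As a mean over each cell's own CPM, 3 of 70 class levels moved by more than 1 SD, all for Cxcl12: 152.7 CPM in pericytes, 51.5 in endothelium and 10.1 in epithelium. Thinning to 1000 UMIs gave shares of 13.97% (Cxcl12), 4.92% (Ackr3) and 1.57% (Hgf) in mesenchyme and 1.98% (Met) in epithelium.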
